A study of Homo sapiens with 30 samples.

Results

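The CDK inhibitors CDKN1A, CDKN1B, CDKN1C, CDKN2A, CDKN2B, CDKN2C and CDKN2D, the D-type cyclins CCND1 and CCND3, and MYC, which together govern passage through G1, were followed after bone morphogenetic protein 4 (BMP4) treatment of breast cancer cell lines. Members were all probes that the array names for these 10 genes, which gave 19 of its 41000 probes and 10 of its 30484 gene names. An array set the BMP4-treated against the vehicle-treated cells of 1 established line, and there were 30, for 5 lines at 6 times. The lines, ZR-75-30, SK-BR-3, HCC1954, HCC1419 and MDA-MB-361, were unmodified and received recombinant human BMP4 or vehicle. Cells were collected after 30 min and after 1 h, with later samples at 3 h and 6 h and the last ones at 12 h and 24 h. Cells from 3 parallel treatments were pooled before RNA extraction, so each array held 1 RNA pool per channel, BMP4 in Cy5 and vehicle in Cy3. Lines served as the replicates, except in tests between lines, where the 6 arrays of a line did.

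Cyclin D with CDK4 or CDK6 begins to inactivate the retinoblastoma protein in G1, and cyclin E with CDK2 completes it, which releases E2F factors and allows DNA replication to start. The INK4 inhibitors (p16, p15, p18 and p19, encoded by CDKN2A, CDKN2B, CDKN2C and CDKN2D) bind CDK4 and CDK6, while the CIP/KIP inhibitors (p21, p27 and p57, encoded by CDKN1A, CDKN1B and CDKN1C) act mainly on CDK2 complexes. MYC is a transcription factor that promotes growth, and in epithelial cells the TGF-beta superfamily, to which BMP4 belongs, is known for raising p21 and p15 and lowering MYC through SMAD proteins.

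All ratios below are log2 of BMP4 over vehicle signal after background correction and loess normalization, so 1 is a 2-fold increase. In the vehicle channel, 58.9% to 70.6% of probes lay well above background, and the median SD over the 10 spots of replicated probes was 0.04 to 0.11 per array. The interquartile range of the ratio was 0.06 to 0.32 between arrays. The BMP targets ID1, ID2 and ID3, inhibitors of differentiation factors, were higher at 24 h in all 5 lines, by 1.42 ± 0.38, 1.63 ± 0.64 and 1.01 ± 0.40 (SD, n = 5; adjusted p of limma 1.7e-05, 1.0e-05 and 0.00097). The epithelial genes KRT8, KRT18, KRT19, EPCAM, MUC1 and ERBB2 were above background on all 30 arrays in the vehicle channel and the adhesion gene CDH1 on 24, while PTPRC of leukocytes and DCN of fibroblasts were above background on 0. Among other markers, CD14 and CD3E were above background on 30, COL1A1 on 28, CDH5 on 10, PECAM1 on 6, COL3A1 on 5 and COL1A2 on 1. The dyes were never swapped, so a probe's dye bias, if any, enters a ratio set against 0, which a difference between times or lines does not if the bias is constant. Precision is limited by how many arrays there were.

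The core promoters of CDKN1A and CDKN2B, the inhibitors best known as TGF-beta targets, are shown because CDKN1A had the highest ratios among the members and CDKN2B ratios near 0. They cover the 250 bases before the transcription start in RefSeq, build GRCh38.p14, with GC boxes (GGGCGG or its reverse complement CCGCCC) in capitals. The CDKN1A window lies on the plus strand at chr6:36678464-36678713 and the CDKN2B window on the minus strand at chr9:22009306-22009555.
CDKN1A: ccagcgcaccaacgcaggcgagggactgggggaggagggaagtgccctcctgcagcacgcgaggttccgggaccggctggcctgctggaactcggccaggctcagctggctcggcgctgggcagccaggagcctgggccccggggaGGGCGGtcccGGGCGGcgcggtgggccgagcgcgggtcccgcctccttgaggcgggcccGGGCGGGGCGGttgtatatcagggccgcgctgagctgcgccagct
CDKN2B: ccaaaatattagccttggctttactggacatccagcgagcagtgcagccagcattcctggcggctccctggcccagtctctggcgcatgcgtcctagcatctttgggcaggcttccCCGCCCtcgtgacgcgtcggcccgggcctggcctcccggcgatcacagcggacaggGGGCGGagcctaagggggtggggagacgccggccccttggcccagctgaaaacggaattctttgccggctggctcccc
The CDKN1A window held 4 matches to the GC box, of which the last 2 overlap by 1 base, and the CDKN2B window held 2. A GC box lay in 42.6% of the 35116 promoter windows of this length and in at least 1 window of all 7 member genes with an entry. Neither of the printed windows held the SMAD box GTCTG (or CAGAC), found in 38.0% of windows, or the GC-rich SMAD site GGCGCC, found in 16.4%. The E-box CACGTG, a MYC binding motif found in 6.34% of windows, was in neither. Among the 7 members with an entry it was found before CDKN2C alone, a gene with more than 1 window.

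The question at each time point was whether a regulator of G1 differed between BMP4 and vehicle over the 5 lines. With limma, 0 of the 19 member probes were called at an adjusted p under 0.05 at any time point, against 0.0805%, 0.973%, 0.349%, 0.176%, 0.463% and 1.58% of all probes in the order of the times. At an unadjusted p under 0.05 there were 0, 1, 4, 2, 2 and 3 member probes, against 7.09%, 14.3%, 10.3%, 6.96%, 12% and 14.5% of all probes. A cell line block takes the spread between line means out of the error. With it, CDKN1A was called at 3 h and 24 h and CDKN1C at 12 h and 24 h. Such calls are about these 5 lines only, and the share of all probes called with the block was not counted. In pooled bulk RNA, fewer cells of a type and less RNA per cell cannot be told apart. At least 2-fold change in either direction on at least 1 array was seen for 2 of 19 member probes (CDKN1A and MYC), against 7.8% of all probes.

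**Figure D1:**
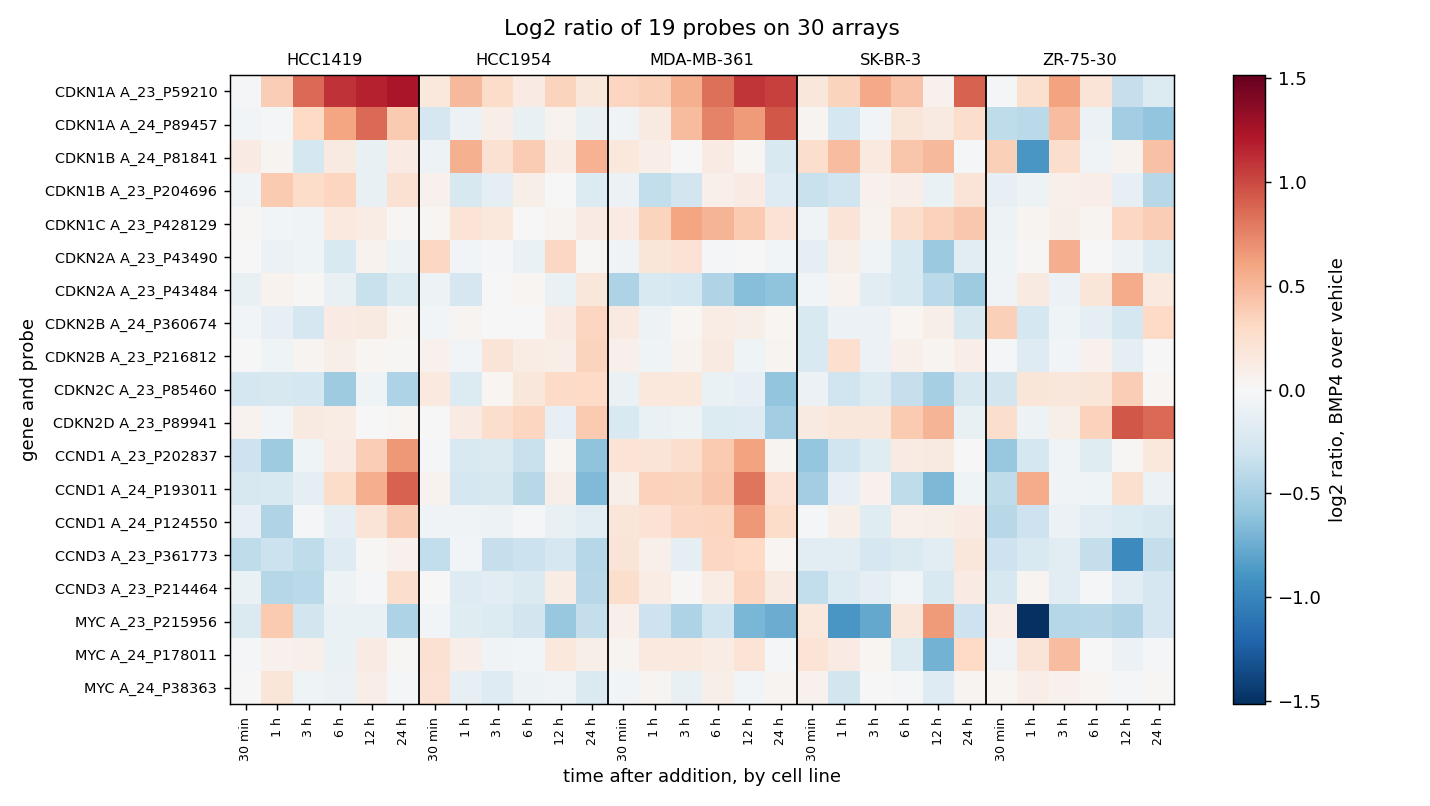
Log2 ratio of BMP4 over vehicle for each of the 19 probes (rows, named by gene and probe) on each of the 30 arrays (columns, by line and then time). Red is higher with BMP4 and blue lower, with the scale reaching the largest absolute ratio. The first CDKN1A row is red in HCC1419 and MDA-MB-361 from 3 h on, and the deepest blue is MYC in ZR-75-30 at 1 h, at −1.52.

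CDKN1A, which encodes p21, had the highest ratio among the members. Its values ran from −0.35 to 1.23 over the arrays with its brighter probe and from −0.60 to 0.94 with its second. The brighter of its probes, A_23_P59210 (hg18 chromosome 6, 36762684 to 36762743, 10 spots per array), gave −0.01, 0.37, 0.86, 1.095, 1.17 and 1.23 in HCC1419 from the first time point to the last. In MDA-MB-361 the ratios at the same times were 0.32, 0.36, 0.54, 0.84, 1.08 and 1.04. Both lines thus lay above 2-fold at 12 h and 24 h, and HCC1419 at 6 h as well. SK-BR-3 gave 0.18, 0.34, 0.58, 0.43, 0.06 and 0.90 in the same order. HCC1954 gave 0.16, 0.49, 0.27, 0.13, 0.34 and 0.17. ZR-75-30 gave −0.03, 0.24, 0.61, 0.19, −0.35 and −0.20. The ratio was above 0 on 26 of 30 arrays, and the 4 arrays below 0 were HCC1419 at 30 min and ZR-75-30 at 30 min, 12 h and 24 h. The SD of its 10 spots was between 0.03 and 0.15 on each array.

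Over the 5 lines, CDKN1A was 0.57 ± 0.21 at 3 h, with all 5 lines above 0, and 0.63 ± 0.62 at 24 h, with 4 of 5 above 0. The limma adjusted p was 0.208 at 3 h and 0.0714 at 24 h without a block, and 0.0386 and 0.00958 with the cell line as a block. Either way the error is pooled over all times and is not the SD at that time. Without ZR-75-30 the 24 h mean was 0.83 with an adjusted p of 0.0185, and without HCC1419 it was 0.48 with an adjusted p of 0.239. The second probe, A_24_P89457 (chromosome 6, 36760156 to 36760215, 1 spot), followed the first over the 30 arrays with r = 0.859, a description in which all points share the RNA of the first probe. That probe gave 0.26 ± 0.23 at 3 h and 0.18 ± 0.58 at 24 h, with adjusted p of 0.621 and 0.683. Its 24 h mean depended on the processing, at 0.68 with the scanner software's log ratio and 0.66 in the series matrix, beside 0.70 and 0.69 for the first probe, and it was −0.01 without MDA-MB-361 and 0.37 without ZR-75-30. Its highest values were 0.94 in MDA-MB-361 at 24 h and 0.86 in HCC1419 at 12 h, and its lowest was −0.60 in ZR-75-30 at 24 h.

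**Figure D2:**
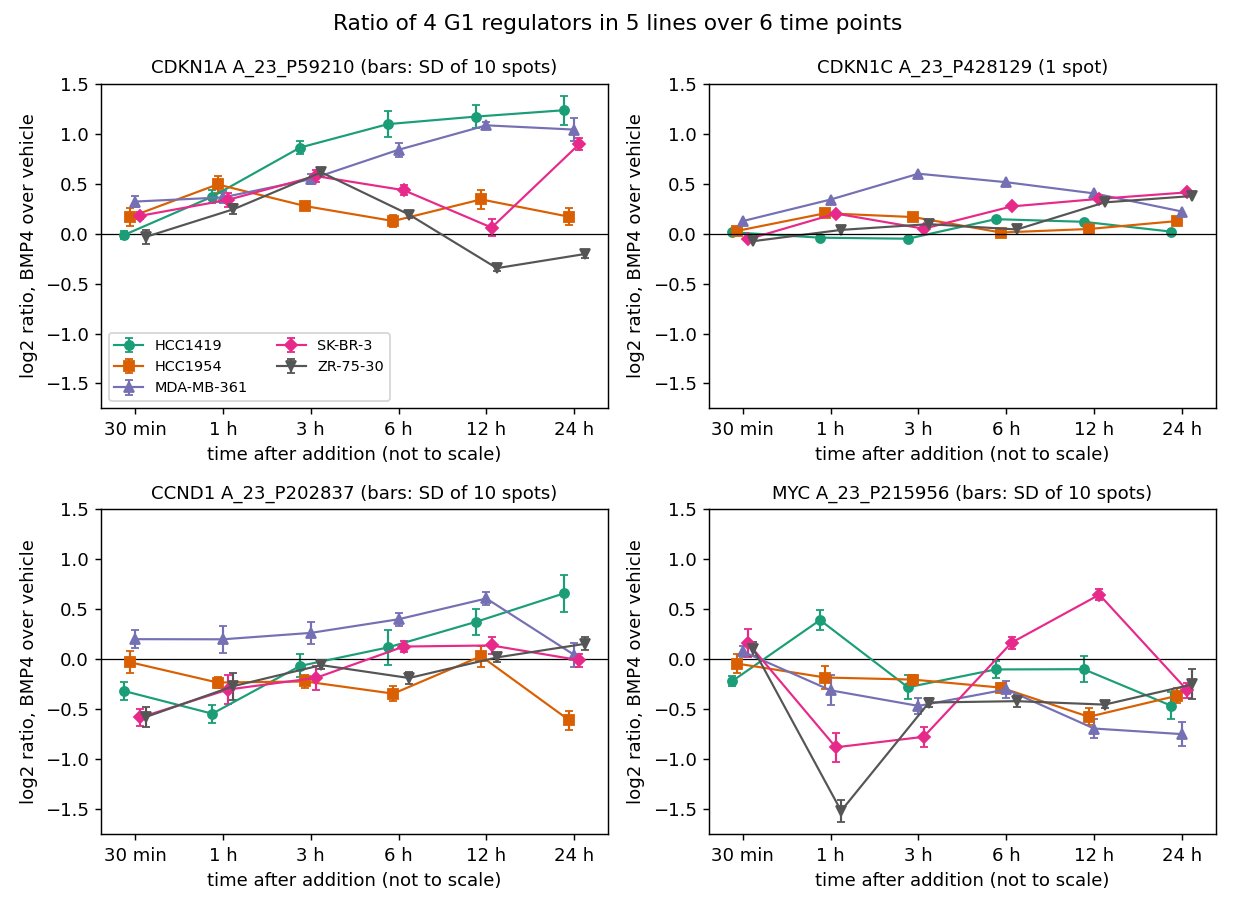
Log2 ratio of BMP4 over vehicle (vertical axis) at each time point (horizontal axis, spaced evenly) for the brightest probe of CDKN1A, CDKN1C, CCND1 and MYC, 1 line of symbols per cell line, with bars for the SD of the 10 spots where the probe has them. CDKN1A climbs to 1.23 in HCC1419 and ends at −0.20 in ZR-75-30, and MYC dips at 1 h in SK-BR-3 and ZR-75-30 and lies below 0 in all 5 lines at 24 h.

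A measure free of a constant dye bias is the late change, the mean ratio of 3, 6, 12 and 24 h minus that of 30 min, tested with the cell line as a block. It was 0.43 ± 0.15 (SE, n = 5 lines) for the first CDKN1A probe and 0.38 ± 0.13 for the second, a 1.34-fold and a 1.30-fold higher ratio, with adjusted p of 0.828 and 0.761. For the second probe it was 0.98 with the software's log ratio and 0.99 in the series matrix (adjusted p of 0.558 and 0.585). Among the members 0 of 19 were called for the late change, against 0.0927% of all probes, and 0 of 19 for change over time, against 0.0902% (unadjusted p under 0.05 for 2, a CDKN1A and a CCND1 probe, against 4.2%). The unadjusted p was under 0.05 for a late rise of 4 member probes, both CDKN1A probes, CDKN1C and the brightest CCND1 probe, against 3.37% of all probes, and for a late fall of 0, against 1.62% (4.99% in either direction). Both CDKN1A probes and CDKN1C were higher late than at 30 min in all 5 lines, 3 of 19 probes against 3.95% of all. By line, the late change of the first CDKN1A probe was 0.06 in HCC1954, 0.10 in ZR-75-30, 0.31 in SK-BR-3, 0.56 in MDA-MB-361 and 1.102 in HCC1419. The test of a difference in late change between the lines gave an adjusted p of 0.948 for this probe, and called 0 of 19 member probes against 0.0415% of all (unadjusted p under 0.05 for 0 against 5.58%). Late and early arrays of a line mostly lay on different slides. Where the 30 min array shared its slide with 2 later arrays, the late change of CDKN1A within the slide was 0.99 in HCC1419 and 0.17 in ZR-75-30, and that of the second probe was 0.50 and 0.36.

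**Figure D3:**
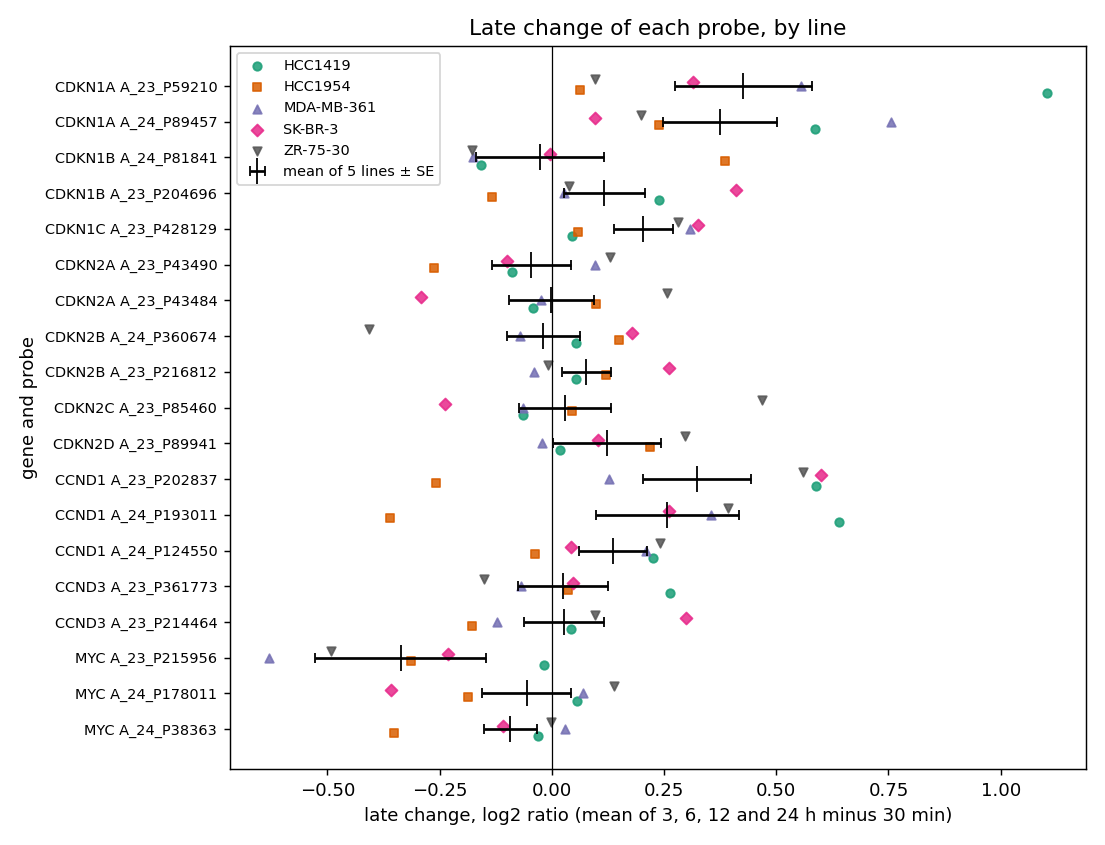
Late change in log2 ratio (horizontal axis) for each of the 19 probes (vertical axis), with symbols for the 5 lines and black marks for the mean of the lines ± SE from limma. Both CDKN1A probes and CDKN1C have all 5 symbols above 0, and the brightest MYC probe has all 5 below 0.

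The other CIP/KIP genes stayed within a narrower range. CDKN1C (p57; A_23_P428129, chromosome 11, 2861479 to 2861538) was 0.24 ± 0.15 at 12 h and 0.23 ± 0.17 at 24 h, above 0 in all 5 lines at both. Its adjusted p was 0.175 and 0.137 without a block and 0.0289 and 0.0252 with it. At 24 h it was highest in SK-BR-3, at 0.41, followed by ZR-75-30 at 0.38, MDA-MB-361 at 0.22, HCC1954 at 0.12 and HCC1419 at 0.02. MDA-MB-361 stood highest at 3 h, with 0.60. Its late change was 0.20 ± 0.07 (adjusted p = 0.699). CDKN1B (p27) gave late changes of −0.03 ± 0.14 with A_24_P81841 and 0.12 ± 0.09 with A_23_P204696 (adjusted p of 0.998 and 0.971), and its ratio ran from −0.88 in ZR-75-30 at 1 h to 0.54 in HCC1954 at 1 h with the first probe. Those probes did not follow each other over the 30 arrays (r = −0.27), although their vehicle levels did (r = 0.61).

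The INK4 genes gave late changes between −0.05 and 0.12. CDKN2B (p15; A_24_P360674, chromosome 9, 21994945 to 21995004) was −0.02 ± 0.08 (adjusted p = 0.997). Its ratio at 24 h was 0.33 in HCC1954 and 0.31 in ZR-75-30, 0.03 in MDA-MB-361 and 0.04 in HCC1419, and −0.24 in SK-BR-3, so the signs were mixed. The dimmer CDKN2B probe, A_23_P216812, was above background in the vehicle channel on 14 of 30 arrays and ran from −0.23 to 0.34. CDKN2A, whose locus encodes p16 and the unrelated protein ARF (the probes were not assigned to either), gave late changes of −0.05 ± 0.09 with A_23_P43490 and −0.0009 ± 0.09 with A_23_P43484. Those probes were nearly unrelated over the arrays (r = 0.09), and in MDA-MB-361 the second lay below 0 on all 6 arrays, between −0.65 and −0.23, where the first ran from −0.06 to 0.21. CDKN2C (p18) ran from −0.60 to 0.37 and gave a late change of 0.03 ± 0.10. CDKN2D (p19) gave 0.12 ± 0.12, and its highest ratios were in ZR-75-30, 0.94 at 12 h and 0.86 at 24 h, where CDKN1A was −0.35 and −0.20. In MDA-MB-361, in contrast, CDKN2D lay below 0 on all 6 arrays, down to −0.53 at 24 h.

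CCND1, the cyclin D1 gene, had the smallest unadjusted p of the members for change over time (0.032 for A_23_P202837, chromosome 11, 69177414 to 69177473; adjusted p = 1.00). Its ratio went from −0.32 at 30 min to 0.66 at 24 h in HCC1419, from −0.58 to −0.01 in SK-BR-3 and from −0.58 to 0.15 in ZR-75-30. It went from −0.03 to −0.61 in HCC1954. In MDA-MB-361 it was 0.20 at 30 min, 0.61 at 12 h and 0.04 at 24 h. The late change was above 0 in 4 of 5 lines for all 3 probes, at 0.32 ± 0.12, 0.26 ± 0.16 and 0.14 ± 0.08 (adjusted p of 0.858, 0.965 and 0.965), and below 0 in HCC1954 for all 3. CCND3, the cyclin D3 gene, gave 0.03 ± 0.10 and 0.03 ± 0.09. Its brighter probe, A_23_P361773, was below 0 in all 5 lines at 3 h, at −0.26 ± 0.11 (adjusted p = 0.459), and lowest in ZR-75-30 at 12 h, at −0.96.

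MYC was lower with BMP4 on most arrays, with 1 probe, and the spread between lines was wide. A_23_P215956 (chromosome 8, 10 spots) was above 0 on 6 of 30 arrays. At 1 h the lowest value, −1.52, was that of ZR-75-30, a level 0.35 times that of vehicle with a spot SD of 0.11, followed by SK-BR-3 at −0.88, MDA-MB-361 at −0.31, HCC1954 at −0.18 and HCC1419 at 0.39. At 24 h the lines gave −0.25, −0.31, −0.75, −0.37 and −0.47 in the same order, all below 0. SK-BR-3 stood apart at 12 h, at 0.65. Means over the lines were −0.50 ± 0.73, −0.43 ± 0.22 and −0.43 ± 0.20 at 1, 3 and 24 h, with adjusted p of 0.172, 0.366 and 0.233. Its late change was −0.34 ± 0.19 (adjusted p = 0.965), below 0 in all 5 lines and between −0.63 in MDA-MB-361 and −0.02 in HCC1419. The other MYC probes did not show this. A_24_P178011 correlated with the first at r = −0.46 and gave −0.06 ± 0.10. The array names A_24_P178011 for a different transcript, and its vehicle level did not follow that of the first probe either (r = −0.19). A_24_P38363, above background in the vehicle channel on 5 of 30 arrays, gave −0.09 ± 0.06.

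The members' median late change was 0.03, with 12 of 19 probes above 0, beside 0.005 and 53.3% for all probes. At 24 h the median absolute mean ratio was 0.098 for the members and 0.061 for all probes. The latter include probes near background, and the part of signal level in this gap was not tested.

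In the limma F test over line means with the time point in the model, 22.2% of all probes were called, dim ones included. The mean ratio over the 6 arrays of a line, 30 min included, differed between the lines for 10 of 19 member probes. They were both CDKN1A probes (adjusted p of 0.0208 and 0.00569), CDKN1C (0.0203), 1 of the CDKN2A probes (0.00687), CDKN2C (0.0163), CDKN2D (0.0205), all 3 CCND1 probes (0.0410, 0.0381 and 0.00282) and the brighter CCND3 probe (0.0169). Mean CDKN1A ratios were 0.08 ± 0.35 in ZR-75-30 (SD, n = 6 arrays), 0.26 ± 0.14 in HCC1954, 0.41 ± 0.30 in SK-BR-3, 0.70 ± 0.34 in MDA-MB-361 and 0.79 ± 0.50 in HCC1419. MDA-MB-361 had the highest mean for CDKN1C (0.37 ± 0.18), for all 3 CCND1 probes (0.29 ± 0.20 for the brightest) and for CCND3 (0.13 ± 0.17), and the lowest for CDKN2D (−0.23 ± 0.16). ZR-75-30 had the highest for CDKN2D (0.40 ± 0.41) and the lowest for CCND3 (−0.40 ± 0.28). CDKN2C was lowest in HCC1419 (−0.31 ± 0.17) and SK-BR-3 (−0.28 ± 0.14), below 0 on all 6 arrays of each, beside 0.12 ± 0.19 in HCC1954 and 0.11 ± 0.22 in ZR-75-30. Without MDA-MB-361, 0 of 19 member probes were called, and a single scaling factor per array instead of loess also left 0. The calls over all probes fell too, from 9092 to 96 and to 5. With dim probes left out, 10 member probes were called, and 9597 of all the probes that remained. The test of the late change between lines called 0 of 19 member probes, against 0.0415% of all probes. Most scan days held 1 line, and for those line and day cannot be told apart. With scan day as a random block 10 member probes were called. The 1 day with more than 1 line held HCC1954 and ZR-75-30, whose CDKN1A ratios at 3 h on that day were 0.27 and 0.61.

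Without BMP4, the lines differed widely in these genes. The vehicle signal is given as log2 and compared between lines for 1 probe at a time. It differed for 18 of 19 member probes, against 73.1% of all probes, dim ones included. The exception was the MYC probe A_24_P178011 (limma adjusted p = 0.275). MYC had the widest span with A_23_P215956, from 14.12 ± 0.60 in HCC1954 (SD, n = 6) and 14.01 ± 1.30 in SK-BR-3 through 12.54 ± 0.89 in ZR-75-30 and 11.94 ± 0.68 in HCC1419 to 10.25 ± 1.25 in MDA-MB-361, 14.7-fold between the ends. The steps from HCC1954 to SK-BR-3 (adjusted p = 0.876) and from ZR-75-30 to HCC1419 (0.303) did not pass the limma test, while the other neighbouring steps passed the test (0.00866 and 0.00291). Within SK-BR-3 the MYC vehicle level was 15.01, 15.90, 14.40, 13.13, 12.61 and 13.02 from the first time to the last, and within MDA-MB-361 it was 11.15, 11.79, 9.32, 8.49, 9.78 and 10.95. In both lines the vehicle level thus spanned more over the course than the MYC ratio did. In SK-BR-3 the first 2 of these arrays were scanned on another day than the other 4.

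CDKN1A was high in HCC1954 (12.48 ± 1.07), MDA-MB-361 (12.20 ± 0.51) and ZR-75-30 (12.19 ± 0.37), and low in HCC1419 (10.05 ± 0.36) and SK-BR-3 (9.91 ± 0.26). The step between ZR-75-30 and HCC1419 passed the test (adjusted p = 2.5e-07) and the other neighbouring steps did not (0.412, 0.973 and 0.689). The ends were 5.94-fold apart, and 2.68-fold with the second probe. CDKN1B was lowest in HCC1954, at 8.80 ± 0.22, beside 11.20 ± 0.17 in MDA-MB-361 and 11.13 ± 0.18 in HCC1419, 5.24-fold between the ends. With its second probe HCC1954 was again lowest, but ZR-75-30 was highest and the span was 2.32-fold. CDKN1C was highest in MDA-MB-361 (8.84 ± 0.17) and lowest in ZR-75-30 (7.24 ± 0.15). HCC1954 was highest for CDKN2A (13.66 ± 0.13, next SK-BR-3 at 11.77 ± 0.21, adjusted p = 1.5e-13) and for CDKN2B (10.23 ± 0.19, next SK-BR-3 at 8.94 ± 0.20, adjusted p = 3.4e-10). With the second CDKN2A probe the step from HCC1954 to SK-BR-3 was only 0.45 (limma adjusted p = 0.0199). CDKN2B was lowest in MDA-MB-361 (7.06 ± 0.05), 9.02-fold under HCC1954, and 2.11-fold under it with the dimmer probe. CDKN2C was highest in SK-BR-3 (13.15 ± 0.39) and MDA-MB-361 (12.69 ± 0.08), a step that did not pass the test (adjusted p = 0.122). CDKN2D spanned 2.75-fold, from 13.89 ± 0.31 in MDA-MB-361 to 12.43 ± 0.24 in SK-BR-3. CCND1 was highest in HCC1954 (13.69 ± 0.78, next ZR-75-30 at 12.26 ± 0.25, adjusted p = 4.8e-05) and CCND3 spanned 1.62-fold, with no neighbouring step past the test for its brighter probe.

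The HCC1954 arrays were scanned on 2 days and some vehicle levels split with them. CDKN1A was 11.34 to 11.96 on the day of the 30 min, 1 h and 12 h arrays and 12.51 to 13.77 on that of the 3 h, 6 h and 24 h arrays, CCND1 was 12.82 to 13.10 and 14.38 to 14.43, and CDKN2C was 11.73 to 11.91 and 10.34 to 10.69. The part of the scan day in these levels was not tested. With the brightest probe of each, the CDKN2A and CDKN2B levels of HCC1954 stayed above those of every other line on both days. With the other CDKN2A probe, A_23_P43484, the levels of HCC1954 (11.13 to 11.79) and SK-BR-3 (10.61 to 11.42) overlapped.

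**Figure D4:**
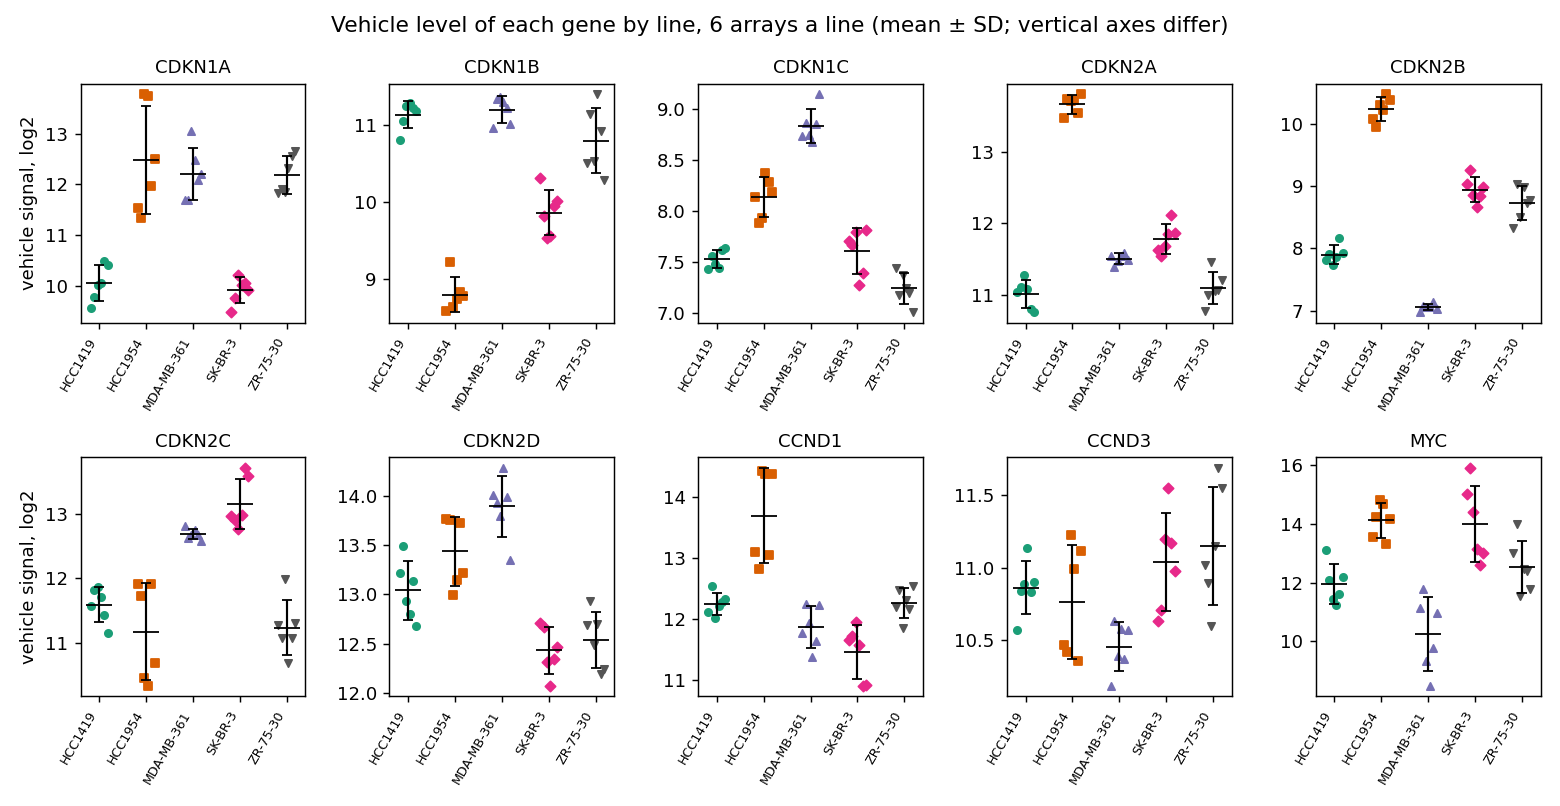
Vehicle signal (log2, vertical axis, scaled separately in each panel) of the brightest probe of each gene in the 5 lines, with symbols for the 6 arrays of a line and black marks for mean ± SD. HCC1954 stands above the other lines for CDKN2A and CDKN2B and below them for CDKN1B, and MYC runs from 14.12 in HCC1954 to 10.25 in MDA-MB-361.

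Of 29 other genes of the G1 pathway 0 were called for the late change and 1 at 24 h, against 1.58% of all probes. It was MXD1, a partner of MAX that opposes MYC, which was higher by 0.50 ± 0.22 in all 5 lines (limma adjusted p = 0.0105). At an unadjusted p under 0.05, 1 of the 29 was higher late and 0 lower. Among the genes with the smallest p for change over time, the mean at 24 h was −0.28 ± 0.24 for CCNA2 (cyclin A2), −0.24 ± 0.38 for RBL1 and 0.37 ± 0.45 for RBL2 (retinoblastoma relatives p107 and p130) and 0.57 ± 0.50 for CDK6, and none of these 4 passed (adjusted p of 0.143, 0.332, 0.214 and 0.134). Between lines 12 of the 29 were called, against 22.2% of all probes, dim ones included. The list's median ratio at 24 h was −0.03, beside 0.004 for all probes.

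Of 7 p53 targets, 1 was called at 24 h, against 1.58% of all probes, too few genes to read as a trait of the list. It was the oxidoreductase gene TP53I3, at 0.19 ± 0.17 and above 0 in 4 of 5 lines (limma adjusted p = 0.0301). SESN1, a stress-response gene, was 0.18 ± 0.08 (0.318), BBC3, which encodes PUMA, 0.30 ± 0.63 (0.800), the death receptor gene FAS −0.09 ± 0.17 (0.663), and BTG2, an antiproliferative gene, 0.21 ± 0.27 (0.414). Of 7 MYC-activated genes 0 were called for the late change or at 24 h, against 0.0927% and 1.58% of all probes. At an unadjusted p under 0.05 there were 0 for the late change, against 4.99%. The nucleolar genes FBL and NCL were −0.08 ± 0.23 and −0.13 ± 0.10 at 24 h, CAD of pyrimidine synthesis −0.26 ± 0.18, NPM1 0.08 ± 0.45 and LDHA 0.19 ± 0.25.

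Of 23 proliferation genes, 2 were called at 24 h, against 1.58% of all probes in either direction. Both are replication helicase genes and were lower, MCM5 at −0.49 ± 0.40 in all 5 lines (limma adjusted p = 0.0456) and MCM7 at −0.63 (0.0390), for which an array had no value. The list's median was −0.32 at 24 h. By line it was −0.86 in MDA-MB-361 with 1 of 23 genes above 0, −0.51 in ZR-75-30 with 5, −0.18 in SK-BR-3 with 3, −0.09 in HCC1419 with 2 and −0.06 in HCC1954 with 9. The CDKN1A ratios of the same arrays were 1.04, −0.20, 0.90, 1.23 and 0.17 in the same order. A link between CDKN1A and the proliferation genes was not tested.

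The genes most like the CCND1 probe A_23_P202837 over the 30 arrays were TNFRSF1A (r = 0.843), UCK1 (0.812), ZNF622 (0.804), MLXIP (0.801) and MAP4 (0.786). They came from 18725 probes above background in both channels throughout, with other CCND1 probes left out. The other CCND1 probes followed A_23_P202837 less closely than these genes did, at r = 0.736 and 0.760, so the likeness is to that probe. TNFRSF1A encodes a TNF receptor, UCK1 a uridine-cytidine kinase, MLXIP a glucose-responsive transcription factor and MAP4 a microtubule-associated protein. All points share arrays, lines and normalization, and the values are a description.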

How the data were processed

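BMP4 and vehicle were compared on 30 dual-colour arrays, 1 for each of 5 lines at 6 time points. Per the file headers, scanner software Feature Extraction 9.5.1.1 made the files, with probe positions of hg18. The deposited mean spot and local background values are intensity values without normalization, and processed signals were deposited as intensity after background subtraction and dye normalization. The deposited ratio column is on a log10 scale, Cy5 over Cy3 processed signal. The authors' value table gives log2 ratios per probe after their linear normalization, with a median of 0 on each array.

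Here mean signals were background-corrected (normexp, offset 50) and normalized by loess within arrays in limma 3.58.1 (R 4.3.3), leaving out 1639 control spots and setting outlier spots to missing. Spots were averaged per probe, and Aquantile scaling gave the vehicle levels. Tests used lmFit and eBayes. P-values were adjusted by Benjamini-Hochberg over all probes and called under 0.05. Ratios against 0 had no block, time tests had the line as a fixed block, and line tests had the time point as a term. Random blocks (scan day, slide) took their correlation from every 20th probe. The fits were tested on simulated data.

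The replicate numbers pair arrays because each is 1 line. Deviations from time-point means had a mean r of 0.23 within a line (44 of 75 pairs above 0.1) and −0.09 between lines (102 of 360 pairs).

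Each member is described by all its probes, and by the brightest where 1 value is given. Up to 5 genes of each pathway list were named by smallest p for change over time, beside those called, and the 5 genes most like the member probe with the smallest such p. List genes were read from 1 probe each. One marker of another cell type is not reported here. The members and lists were chosen with earlier results of these data known.

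Alternatives were the software's log ratio, the series matrix, 1 factor per array, another offset, a filter on dim probes, array weights, each line left out, the block added or removed, and scan day or slide as a random block, the slide added after the data were seen.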

Additional observations from a re-analysis of the deposited data

Results flagged for a closer look

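In 2 of 60 groups of 5 lines at a time point (brightest probe per gene), 1 line lay far from the others, and in 0 of 50 groups of 6 vehicle levels of a line. Chance flags about 1 in 20 groups. CCND3 in MDA-MB-361 at 6 h was 0.31, where the other lines ran from −0.37 to −0.19. CDKN2B in ZR-75-30 at 12 h was −0.26, where the others ran from 0.09 to 0.14.

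Ratios differed between the lines for 10 member probes (limma F test, adjusted p): CDKN1A at 0.0208 and 0.00569, CDKN1C at 0.0203, CDKN2A (A_23_P43484) at 0.00687, CDKN2C at 0.0163, CDKN2D at 0.0205, CCND1 at 0.0410, 0.0381 and 0.00282 and CCND3 at 0.0169. None of the 10 was called without MDA-MB-361, where the calls over all probes fell from 9092 to 96.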

How the results depend on the processing

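No member probe was called for the late change, the change over time or the late change by line in any alternative run. Against 0 at 24 h, 1 member probe (CDKN1A) was called with the software log ratio, the series matrix, dim probes left out, array weights, scan day as a random block and slide as a random block, and 2 with the replicate block (CDKN1A and CDKN1C). Leaving out 1 line gave 0 to 1, the 1 being CDKN1A without ZR-75-30. At 3 h 2 were called with array weights (CDKN1A and MYC) and 1 with the replicate block (CDKN1A), at 30 min 1 with array weights (CCND3), and at 12 h 1 with the replicate block (CDKN1C). Over all 14 alternatives the adjusted p of CDKN1A at 24 h ran from 0.000957 to 0.239. The replicate block changed no other call. The share of all probes called against 0 was not counted in the alternative runs, so these calls have no background beside them. Between lines, 0 were called with 1 factor per array, where 5 of all probes were, and leaving out a line gave 0 (without MDA-MB-361, where 96 of all probes were called) to 10, beside 9092 of all probes with every line and loess.

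The late change of the brightest CDKN1A probe ran from 0.26 to 0.60, with an unadjusted p under 0.05 in 13 of 14 alternatives, and that of the second from 0.28 to 0.99, in 12 of 14. Of 264 late changes under alternatives, 17 changed sign, all near 0 and none called. With 1 factor per array, not loess, they were CDKN1B (A_24_P81841) at 0.141, CDKN2A at 0.13 and 0.0914 and CDKN2B (A_24_P360674) at 0.0727, and with slide as a random block CDKN2A (A_23_P43484) at 0.00172. The rest changed sign when 1 line was left out, with ranges of −0.129 to 0.0119 for CDKN1B (A_24_P81841), −0.0887 to 0.00933 and −0.0654 to 0.0719 for CDKN2A, −0.0683 to 0.0784 for CDKN2B (A_24_P360674), −0.0796 to 0.0964 for CDKN2C, −0.0341 to 0.0693 and −0.0400 to 0.0790 for CCND3 and −0.104 to 0.0196 for MYC (A_24_P178011). The cause was not tested.

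Every line is 1 pool of cells per time and treatment. Without a block, p-values of ratios against 0 measure the spread between lines. With the line as a block, the spread between line means is taken out. In tests between lines, p-values measure the spread among the arrays of the same line. Dim probes (CDKN2B A_23_P216812, MYC A_24_P38363) bear on few arrays, and dye bias cannot be told apart from a constant difference from 0.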
